A study of Homo sapiens with 16 samples.

Results

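The regions described here are 581 distal genomic intervals at which the eGFP-YAP libraries of unstressed cells held the most counts while the CTCF libraries did not. They were taken from a pool of 35320 intervals on chromosomes 1 to 22 and X that lay over 5 kb from any GENCODE release 44 transcript start and outside the YAP1 gene, out of 74404 intervals in all. The members were chosen by measured counts in the vehicle libraries: they are the intervals in the top 1000 of that pool by mean YAP1 CPM (a library's counts at an interval, scaled to 1000000 counts over all intervals) that were not in its top 4000 by mean CTCF CPM. The CTCF condition removed 419 of the 1000. YAP1 and CTCF levels in vehicle libraries, and every difference computed against those libraries, therefore describe how the members were chosen and are given without a test.

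All libraries came from HEK293 cells, a human embryonic kidney line, whose labelled genotype is eGFP-YAP (YAP fused to a green fluorescent protein), so controls and stressed cells carry the same fusion. How the fusion was introduced, and whether the line is 1 clone, is not given in the sources used here. Cells were serum-starved for 1 h and then received vehicle, or sorbitol at 200 mM for 1 h, a sugar alcohol that raises the osmolarity outside the cell. The table's column names give vehicle 0 h and sorbitol 1 h, and an effect of the elapsed time cannot be told apart from that of sorbitol. CUT&Tag, in which an antibody tethers a transposase that cuts and tags nearby DNA, was run for CTCF, for RAD21, for YAP1 through a GFP antibody, and for H3K27ac. Each of these 4 targets had 2 libraries per condition, 16 in all. No non-specific antibody library is analysed, so a background of that kind cannot be set beside the values.

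YAP is a transcriptional coactivator without a DNA-binding domain of its own. It is held in the cytoplasm by the Hippo kinases and, in the nucleus, binds DNA mainly through TEAD factors, which recognise the letters GGAATG, often at distal enhancers beside AP-1 factors. RAD21 is a subunit of cohesin, the ring complex that extrudes chromatin loops and is stopped by CTCF, and H3K27ac is the histone acetylation found at active enhancers and promoters.

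The members were of 4 sequence kinds, a grouping made after their values were seen. In 48 members the central 300 bases held the satellite repeat of GGAAT units. A further 42 overlapped a transfer RNA (tRNA) gene, 35 were 375 to 385 bp wide with neither feature, and 456 had none of these features and are called the remaining members. Shares of the other 34739 distal intervals with these features were smaller: 0.176% held the repeat, against 8.26% of the members, and 0.225% overlapped a tRNA gene, against 7.23%.

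Central windows of 300 bases from hg38, plus strand, are shown first for sites beside known YAP targets and AP-1 genes, because these carry the TEAD and AP-1 letters that the motif results count. Capitals mark GGAATG or its reverse complement CATTCC, and in the ATF3 window also a match to the AP-1 letters TGANTCA. A match is a description of the letters and not evidence of binding.
NUAK2 side (chr1:205301280-205301579): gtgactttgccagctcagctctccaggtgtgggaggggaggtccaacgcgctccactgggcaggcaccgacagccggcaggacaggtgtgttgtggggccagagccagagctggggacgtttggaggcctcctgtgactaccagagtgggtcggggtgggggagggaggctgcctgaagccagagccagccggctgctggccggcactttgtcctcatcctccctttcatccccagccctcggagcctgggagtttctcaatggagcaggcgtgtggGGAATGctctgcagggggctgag
CCN1 side (chr1:85607202-85607501): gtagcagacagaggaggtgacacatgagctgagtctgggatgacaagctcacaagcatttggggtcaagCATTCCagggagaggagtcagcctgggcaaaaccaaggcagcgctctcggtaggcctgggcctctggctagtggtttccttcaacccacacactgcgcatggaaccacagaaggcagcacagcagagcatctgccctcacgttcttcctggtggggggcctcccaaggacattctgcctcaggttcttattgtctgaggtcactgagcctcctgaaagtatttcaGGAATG
ATF3 intron (chr1:212596158-212596457): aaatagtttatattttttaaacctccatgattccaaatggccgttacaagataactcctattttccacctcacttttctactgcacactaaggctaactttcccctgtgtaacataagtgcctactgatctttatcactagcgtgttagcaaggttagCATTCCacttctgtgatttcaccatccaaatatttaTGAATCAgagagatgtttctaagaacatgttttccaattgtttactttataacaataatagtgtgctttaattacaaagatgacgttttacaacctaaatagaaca
JUND side (chr19:18291945-18292244): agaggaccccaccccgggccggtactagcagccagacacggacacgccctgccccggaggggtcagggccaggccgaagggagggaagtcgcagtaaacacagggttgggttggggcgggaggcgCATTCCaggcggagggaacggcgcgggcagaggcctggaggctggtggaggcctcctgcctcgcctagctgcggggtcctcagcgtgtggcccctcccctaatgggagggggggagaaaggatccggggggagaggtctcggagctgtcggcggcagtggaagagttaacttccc

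Next are the satellite member with the highest YAP1 level and a member in an intron of LINC00632, both of which repeat the TEAD letters many times. The windows hold 26 and 12 matches. Capitals have the same meaning as above.
GGAAT repeat near the chromosome 10 centromere (chr10:41859951-41860250): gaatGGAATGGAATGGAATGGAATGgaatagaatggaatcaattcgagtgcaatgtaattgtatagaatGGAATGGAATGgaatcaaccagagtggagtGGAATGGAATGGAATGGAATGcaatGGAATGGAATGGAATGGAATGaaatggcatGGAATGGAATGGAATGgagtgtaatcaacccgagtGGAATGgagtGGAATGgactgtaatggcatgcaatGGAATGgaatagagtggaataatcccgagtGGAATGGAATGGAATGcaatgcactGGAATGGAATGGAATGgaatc
LINC00632 intron (chrX:140723596-140723895): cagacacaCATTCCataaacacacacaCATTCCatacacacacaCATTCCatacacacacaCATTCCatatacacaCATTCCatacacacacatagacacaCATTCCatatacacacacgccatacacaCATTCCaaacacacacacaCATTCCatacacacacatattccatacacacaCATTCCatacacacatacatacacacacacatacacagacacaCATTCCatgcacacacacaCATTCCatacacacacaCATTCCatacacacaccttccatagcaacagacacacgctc

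An example each of the last kinds follows, without a TEAD or AP-1 match. The HTR4 window belongs to a 377 bp interval and was chosen for display after its values were seen. In the tRNA window of 150 bases the capitals mark the gene TRG-CCC5-1, a glycine tRNA.
HTR4 intron (chr5:148494201-148494500): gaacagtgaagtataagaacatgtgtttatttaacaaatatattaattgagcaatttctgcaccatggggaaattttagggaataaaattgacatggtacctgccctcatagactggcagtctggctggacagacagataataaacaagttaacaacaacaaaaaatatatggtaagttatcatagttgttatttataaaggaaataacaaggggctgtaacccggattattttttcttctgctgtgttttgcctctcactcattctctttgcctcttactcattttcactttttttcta
TRG-CCC5-1 gene (chr1:16727246-16727395): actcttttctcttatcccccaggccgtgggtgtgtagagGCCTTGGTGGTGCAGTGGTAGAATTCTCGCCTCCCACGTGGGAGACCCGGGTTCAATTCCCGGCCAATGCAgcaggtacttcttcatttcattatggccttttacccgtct

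Libraries held 1187939 to 8842656 counts. Mitochondrial intervals took 1.95 to 57.8% of a library and the YAP1 gene 0.497 to 13.2%, which left 520367 to 8602100 counts on chromosomes 1 to 22 and X outside YAP1. The median member held 56 and 47 counts in the YAP1 vehicle libraries but 14 and 10 in the YAP1 sorbitol libraries. The RAD21 libraries were as shallow, with medians of 25 and 9 in vehicle and 9 and 8 in sorbitol, whereas the H3K27ac libraries had medians of 70 to 107. Differences between libraries depend on how they are scaled. The trimmed mean of M values (TMM), used throughout unless another scaling is named, sets the typical interval near no difference, while scaling to total counts lets every interval move with the mitochondrial share.

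Members were wider and slightly richer in G and C than the rest of the pool. Their median width was 697 bp (200 to 2460), against 361 bp among the other distal intervals, and their median GC content 53.5%, a little above that of the rest. Of the 581, 313 (53.9%) were intergenic, 239 (41.1%) intronic, 11 in other exons, 10 in untranslated regions and 8 in coding sequence, whereas 37.0% of the other distal intervals were intergenic and 57.3% intronic. The median distance to the nearest start was 14900 bp, with a range of 5010 to 752000. Because members were ranked by CPM and not by CPM per length, width entered the choice: ranking by CPM per kb gave 728 intervals, of which 380 were members.

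Acetylation and cohesin, which the rule did not use, were also high at these sites. The top 10% of distal intervals by H3K27ac in vehicle held 398 members (68.5%, against 9.01% of the other distal intervals). The top 10% by RAD21 in vehicle held 309 (53.2%, against 9.25%). In the YAP1 sorbitol libraries 461 members (79.3%, against 8.78%) were again in the top 10%. These rankings are by counts and share the width of the intervals.

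**Figure D1:**
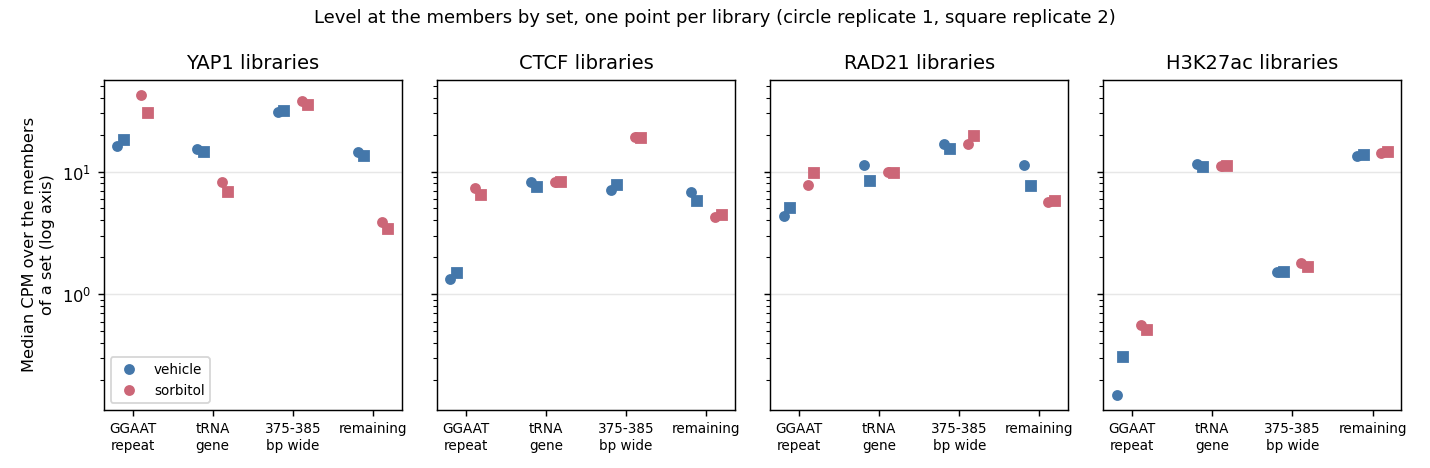
Median CPM over the members of each sequence kind in each of the 16 libraries, with libraries as points on a log axis. Vehicle and sorbitol libraries of a target stand side by side, and satellite members stand at 42.2 and 30.0 CPM in the YAP1 sorbitol libraries, above their vehicle libraries, while their H3K27ac level stays under 1 CPM.

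The 2 lowest-ranked members were an intron of ZMIZ1 (chr10:79151636-79152180) and an intron of BCOR (chrX:40107289-40107646), each with 44 and 27 YAP1 vehicle counts and a mean of 9.8 CPM. Just outside lay an interval near DYRK1A (chr21:37563539-37564695), with 38 and 32 counts and 9.76 CPM, and one near SYNPO2 (chr4:119067309-119068071), with 46 and 25 counts and 9.76 CPM. Sites on either side of the threshold thus had nearly the same level. On the CTCF side the highest member stood at 15.4 CPM and the interval at rank 4000 at 15.5 CPM.

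Sites beside YAP target genes came from a list of 22 genes that YAP is known to activate. Of 151 distal intervals within 100 kb of their starts, 10 (6.62%) were members, against 581 of 35320 (1.64%) in the whole pool. They lay beside 7 genes: CCN1, NUAK2, ANKRD1, AMOTL2, FJX1, GADD45A and MYOF. All 10 belonged to the remaining members and 6 held a TEAD match. Of 10 AP-1 genes, 3 had members nearby, 4 of 37 distal intervals (10.8%). Osmotic stress genes had 2 of 58 (3.45%), genes of TEAD and YAP partners 1 of 148 (0.676%), and kidney developmental transcription factor genes 0 of 61.

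NUAK2 encodes a kinase that acts back on the Hippo pathway. The interval 19899 bp from its start (chr1:205301014-205301846) held 161 and 136 YAP1 counts in vehicle and 22 and 10 in sorbitol, or 41.4 ± 0.996 and 6.42 ± 3.03 CPM (SD, n = 2). Its H3K27ac counts were 126 and 137 in vehicle and 271 and 183 in sorbitol. The YAP1 groups did not overlap and sorbitol was the lower (log2 difference -1.25 ± 0.30 SE after TMM scaling). H3K27ac did not pass the test (log2 difference 0.29 ± 0.16 SE, adjusted p = 0.18). CTCF counts in sorbitol were 2 and 7. The site reached the minimum of counts for a comparison with CTCF through its YAP1 libraries alone, so these counts are given without a test.

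CCN1 encodes a secreted matricellular protein and is among the most used YAP reporters. The nearer of its 2 members (chr1:85607044-85607660, 25581 bp away) held 104 and 91 YAP1 counts in vehicle and 11 and 4 in sorbitol, 27.2 and 3.0 CPM. After TMM scaling its YAP1 log2 difference was -1.74 ± 0.40 (SE). H3K27ac counts were 51 and 37, then 30 and 41, and overlapped between conditions (log2 difference -0.79, adjusted p = 0.069). At the other CCN1 member (chr1:85527136-85527594) YAP1 stood at 10.8 and 1.58 CPM. Both held 2 TEAD matches.

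The other target sites were lower in level and alike in order. ANKRD1, which encodes a nuclear ankyrin-repeat protein of muscle and stressed cells, had 2 members 9127 and 9951 bp from its start, at 16.9 and 13.5 CPM of YAP1 in vehicle, with log2 differences of -1.45 and -1.17. FJX1, encoding a secreted glycoprotein, had 1 (chr11:35629991-35630513) with 40 and 42 counts in vehicle and 4 and 9 in sorbitol. Its YAP1 log2 difference after TMM scaling was -0.66 ± 0.56 (SE). AMOTL2, whose product binds YAP and keeps it from the nucleus, had 1 at 12.4 and 2.02 CPM. The sites beside MYOF, a membrane repair gene, and GADD45A, a stress response gene, stood at 11.1 and 10.1 CPM in vehicle and 2.2 and 1.21 in sorbitol, and a second NUAK2 site at 12.0 and 2.43. At each of the 10 the log2 difference of YAP1 was below 0 (median -1.21), with the whole table at a median of -0.04. The same held for most remaining members, to which all 10 belong: 316 of 456 were below 0, with a median of -0.52. None of the 10 passed the H3K27ac test, and 1 of the 10 had enough RAD21 counts to be tested and did not pass.

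AP-1 factors are dimers of JUN and FOS family proteins. At the site 10029 bp from JUND (chr19:18291651-18292539), YAP1 counts were 76 and 59 in vehicle and 17 and 8 in the shallower sorbitol libraries. After TMM scaling the YAP1 log2 difference was -0.47 ± 0.38 (SE), near the median of -0.52 among the remaining members. H3K27ac counts there were 136 and 142 in vehicle and 111 and 96 in sorbitol, lower in both sorbitol libraries, and fell by 0.92 on the log2 scale (adjusted p = 0.00012). In an intron of ATF3, a stress-induced member of the wider family (chr1:212595982-212596633), YAP1 counts were 63 and 41 in vehicle and 5 and 5 in sorbitol, with H3K27ac at 25 and 13, then 24 and 17. The YAP1 log2 difference there was -1.38 ± 0.52 (SE). The ATF3 window held a TEAD and an AP-1 match. The remaining 2 AP-1 sites, 83251 bp from JUND and 91252 bp from FOSB, also had YAP1 differences below 0.

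EGR1 encodes an immediate early transcription factor that rises with many stresses. The member 26382 bp from its start (chr5:138491861-138493300, nearer to ETF1) held 56 and 54 YAP1 counts in vehicle and 28 and 18 in sorbitol. CPM went from 15.4 to 9.3, while the log2 difference after TMM scaling was 0.70 ± 0.33 (SE). That value involves the vehicle libraries that chose the members, and a difference from the target sites was not tested. H3K27ac counts went from 375 and 320 to 178 and 171, with no overlap, and fell by 1.48 on the log2 scale (adjusted p = 4.5e-12).

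**Figure D2:**
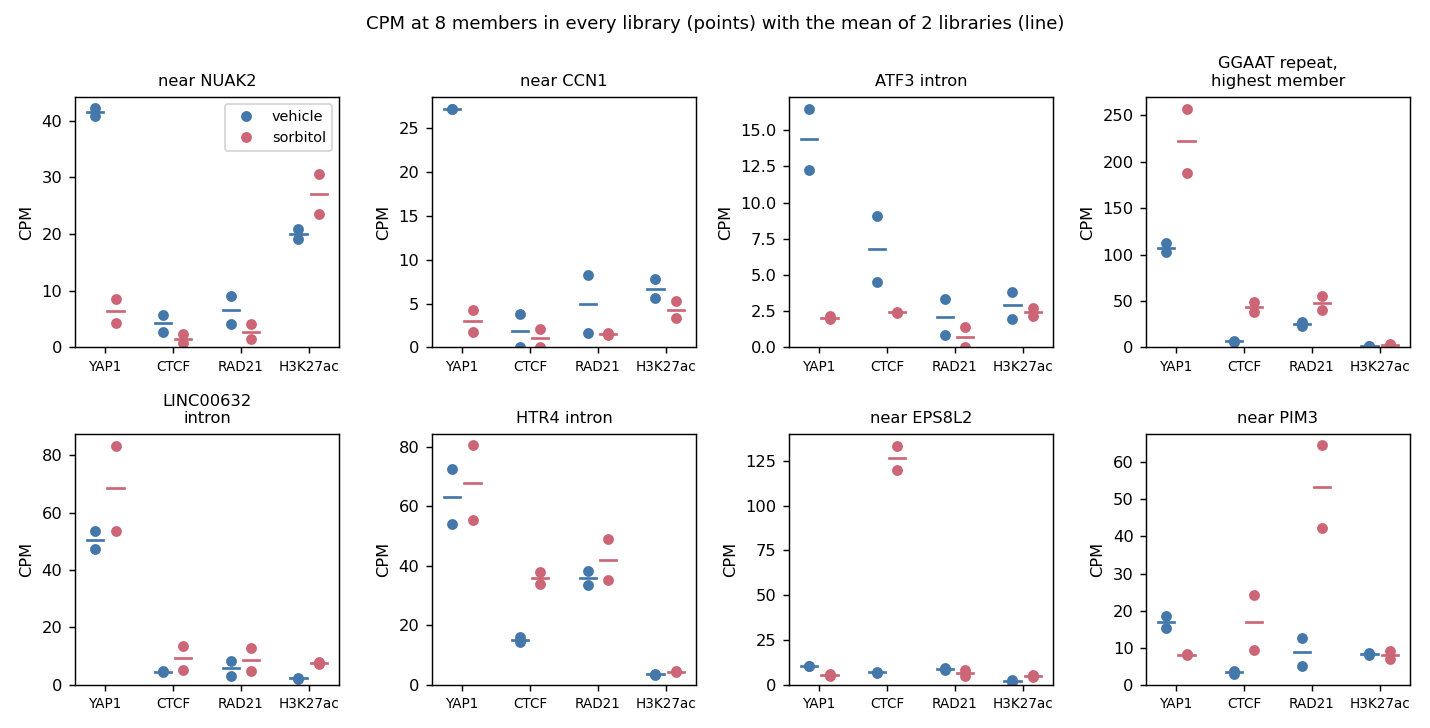
CPM in the individual libraries at named members, by target and condition. At the NUAK2, CCN1 and ATF3 sites both YAP1 sorbitol libraries lie below both vehicle libraries, while at the satellite site near the chromosome 10 centromere both lie above.

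The 456 remaining members carried most of the acetylation, with 358 (78.5%) in the top 10% of the pool by H3K27ac. Their central windows held the TEAD letters in 113 cases (24.8%), against 15.8% of the other distal intervals. AP-1 letters were found in 14.5% against 10.4%, and both together in 4.82% against 1.91%. The letters of SP and KLF factors, GGGCGG, were found in 31.4% against 12.0%, those of TFAP2, GCCNNNGGC, in 18.6% against 10.6%, and those of RUNX, TGTGGT, in 18.2% against 23.7%. The ETS letters CCGGAAGT were found in 0.439% against 0.296%, and the HNF1 motif in none of the members. The CTCF consensus, with at most 1 mismatch, was in 0.658% against 19.9%, a difference the CTCF condition of the rule bears on directly. Motifs were searched on both strands, several of these letter strings are rich in G and C, and the median GC content of the remaining members was 56.2%.

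**Figure D3:**
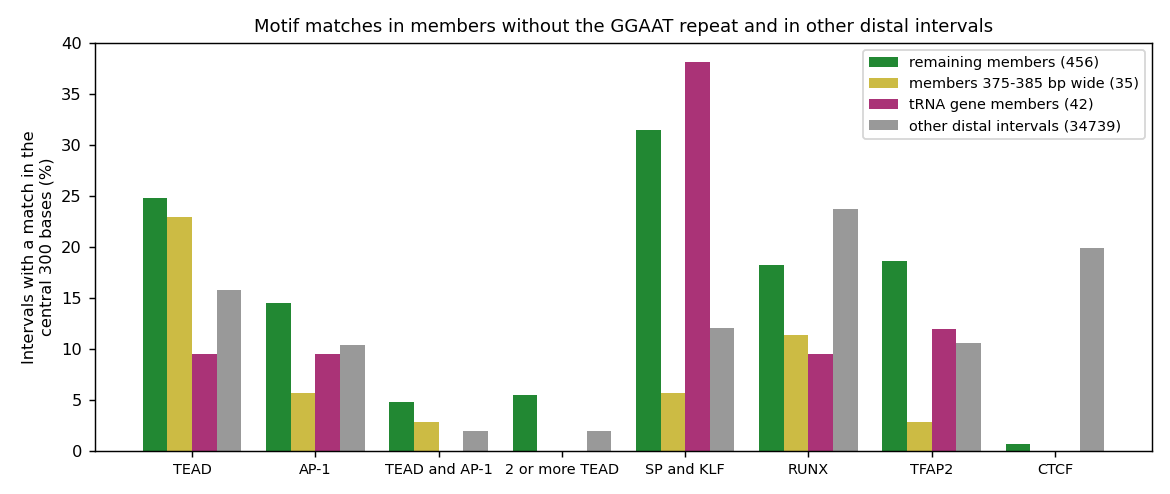
Percent of windows of 300 bases with each motif on either strand, for the 456 remaining members, the narrow members, the tRNA gene members and the other distal intervals. TEAD letters stand at 24.8% of the remaining members and 15.8% of the other distal intervals, and SP and KLF letters at 31.4% and 12.0%.

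In the YAP1 sorbitol libraries, which the rule did not use, the 113 remaining members with TEAD letters had a median of 2.53 CPM and the 343 without had 4.26. Their vehicle medians, 14.2 and 13.4 CPM, were held alike by the threshold that chose them. The differences between conditions are therefore a description only. The median log2 difference was -1.14 with TEAD letters, 99 of 113 being below 0, and -0.31 without, 217 of 343 being below 0. The 66 with AP-1 letters had a median of -1.06 and 61 below 0, and the 22 with both had -1.39 and 21 below 0. The sets also differed in composition: GC content was 50.3% with TEAD letters and 58.4% without. The part of GC content in the difference was not tested.

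TEAD letters also differed with acetylation. Ordered by H3K27ac in vehicle into 3 sets of 152, the remaining members had median H3K27ac of 4.58, 13.5 and 33.2 CPM. TEAD letters were in 63 (41.4%), 38 (25%) and 12 (7.89%) of the sets, and median GC content was 49.8, 56.2 and 59.6%. The least acetylated set thus held the most TEAD letters and had the lowest GC content. Median YAP1 differences, which the rule bears on, were -1.03, -0.48 and -0.28 in the same order.

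YAP1 differences between sorbitol and vehicle, as a description, separated the sequence kinds. Over 22765 intervals with enough counts, 6.83% passed an adjusted p of 0.05 (5.34% higher in sorbitol, 1.49% lower). Among the 581 members 105 were past it in the higher and 47 in the lower direction, counts that follow from the choice of members and support nothing by themselves. The medians were 2.41 for the satellite members, 1.52 for the narrow intervals, 0.52 for tRNA genes and -0.52 for the remaining members. With total counts as the scale they were 0.98, 0.08, -0.92 and -1.96 against -1.46 for all tested intervals, and with counts on chromosomes 1 to 22 and X they were 1.74, 0.84, -0.16 and -1.20 against -0.70. The sign at tRNA genes therefore turned with the scale.

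**Figure D4:**
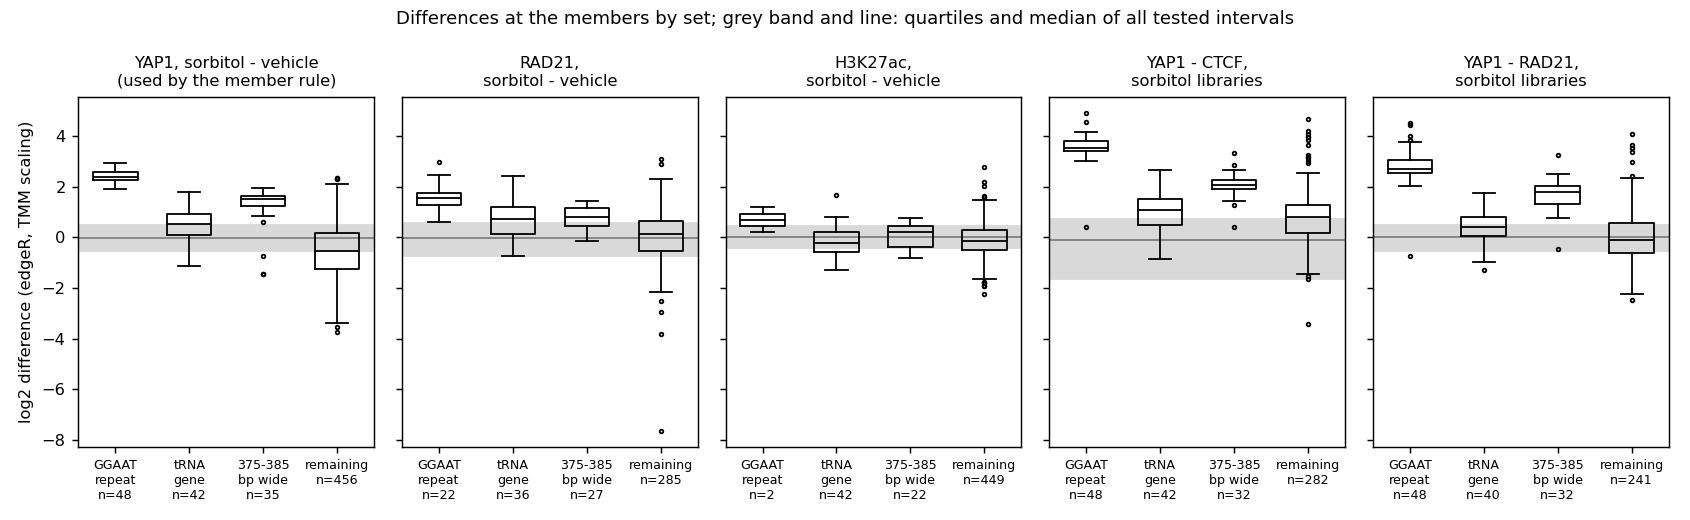
Distributions of log2 differences after TMM scaling over the members of each sequence kind. Panels show sorbitol minus vehicle for YAP1, RAD21 and H3K27ac, and YAP1 minus CTCF and YAP1 minus RAD21 in sorbitol. YAP1 differences between conditions have medians of 2.41 for satellite members and -0.52 for the remaining members, and involve vehicle libraries used to choose the members.

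CTCF differences, also in part used by the rule, had medians of 3.17, 2.35, 1.14 and 0.61 in the same order, beside -0.06 over 39261 intervals. Of 481 members with enough CTCF counts 211 were past the threshold higher and 13 lower, beside 40.2% called (19.5% higher, 20.7% lower). With total counts the medians were 2.19, 1.37, 0.16 and -0.37, beside -1.04, so the sign at the remaining members turned with the scale. Members were chosen for not being high in CTCF in vehicle, and nothing is read from these counts.

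The satellite members lay in pericentromeric blocks: all 48 were intergenic and 43 had another member within 50 kb. Chromosome 4 held 20 of them and chromosome 10 held 8. Repeats of this kind are nearly identical between copies, so the counts of single intervals depend on how the aligner placed reads that match several copies, and neighbouring members are not independent. Their median YAP1 level was 17.1 ± 1.34 CPM in vehicle and 36.1 ± 8.63 in sorbitol (SD, n = 2). As a share of counts on chromosomes 1 to 22 and X they held 0.222 and 0.239% in the YAP1 vehicle libraries and 0.857 and 0.739% in the sorbitol libraries. Median H3K27ac was 0.229 CPM in vehicle and 0.538 in sorbitol, so these sites were almost without acetylation. Each held at least 2 TEAD matches, but units of this repeat in tandem spell the TEAD letters. The matches therefore follow from how this kind was defined and are not a separate observation.

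The highest of them, chr10:41859731-41860470, held 392 and 375 YAP1 counts in vehicle and 661 and 439 in sorbitol. CTCF counts there were 31 and 21, then 138 and 114, and RAD21 counts 62 and 27, then 79 and 50. After scaling for the shallower sorbitol libraries the RAD21 level was 24.9 ± 3.03 CPM in vehicle and 48.2 ± 10.4 in sorbitol, and rose by 1.54 on the log2 scale (adjusted p = 0.015). RAD21, whose counts the rule had not used, was thus higher in sorbitol at this repeat. YAP1 and CTCF counts were higher too, but those differences involve the vehicle libraries that chose the members and are a description only. H3K27ac was low but also higher there, with 8 and 8 counts in vehicle and 34 and 18 in sorbitol. It reached the minimum of counts through the sorbitol libraries alone and is given without a test. In sorbitol YAP1 stood above CTCF by 3.49 (adjusted p = 6.6e-08) and above RAD21 by 2.95 (adjusted p = 0.00026). The next highest by YAP1 in sorbitol were 2 satellites on chromosome 5 (chr5:49666029-49666561 and chr5:49659690-49660064), a further 1 on chromosome 10 (chr10:41879272-41879632) and 1 on chromosome 4 (chr4:49149441-49149935), at 142, 132, 103 and 96.7 CPM.

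LINC00632, a long non-coding RNA gene on X, held TEAD letters in another arrangement. Its intronic member chrX:140723232-140724259 had 205 and 158 YAP1 counts in vehicle and 214 and 125 in sorbitol, in other words 50.5 and 68.4 CPM with overlapping counts. After TMM scaling the YAP1 log2 difference was 1.86 ± 0.19 (SE), a description that involves the vehicle libraries used by the rule. H3K27ac counts were 13 and 16 in vehicle and 63 and 63 in sorbitol, and rose by 1.63 ± 0.35 (SE) on the log2 scale (adjusted p = 0.00046). In sorbitol YAP1 stood above RAD21, at 18 and 6 counts, by 3.65 (adjusted p = 0.00028). A smaller member beside it, chrX:140724859-140725193, also had 12 matches, with 48 and 25 YAP1 counts and 2 and 5 CTCF counts in sorbitol.

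The 35 narrow intervals had the highest median YAP1 level in vehicle, 30.8 CPM, with 36.2 in sorbitol. Among them 26 were 380 or 381 bp wide (4.48% of all members, against 0.61% of the other distal intervals). They included the members in introns of HTR4 (chr5:148494163-148494539) and FNBP1 (chr9:129970390-129970770), in an exon of LINC00485 (chr12:102810245-102810625), and between genes on chromosome 6 (chr6:132905604-132905984), all among the 10 highest of all members by YAP1 in vehicle. Introns of LRMDA and VPS13B, remaining members of 478 and 369 bp, were also among those 10, at 73.2 and 55.6 CPM in vehicle and 84.1 and 75.9 in sorbitol. At the HTR4 site YAP1 counts were 206 and 242 in vehicle and 142 and 188 in sorbitol, CTCF counts 72 and 48, then 108 and 100, and RAD21 counts 88 and 40, then 50 and 60. H3K27ac counts were 22 and 24, then 40 and 34. The HTR4 interval stood above CTCF in sorbitol by 2.09 (adjusted p = 3.2e-05) and above RAD21 by 1.50 (adjusted p = 0.026).

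Counts of the narrow intervals followed the counts of the YAP1 gene and of mitochondrial intervals across libraries more closely than the other kinds did. Per 1000 counts in the YAP1 gene they held 5.44 to 16.6 over the 16 libraries, a 3.05-fold range, while satellite members ranged 9.35-fold, tRNA genes 41.0-fold and the remaining members 93.7-fold. Without the H3K27ac libraries narrow intervals held 5.44 to 10.6, tRNA genes 2.78 to 10.7 and remaining members 18.9 to 99.9. With the libraries of each YAP1, CTCF and RAD21 group summed, single narrow intervals ranged from 1.31-fold to 11.8-fold by the same measure. A site with no CTCF counts in vehicle was left out of that range. Per 1000 mitochondrial counts the narrow range was 3.26-fold and that of the remaining members 105-fold. Without the H3K27ac libraries these ranges ran from 1.29 to 3.3 and from 4.31 to 21.1. The narrow intervals also held even numbers in 390 of 451 values of at least 10 counts (86.5%), whereas the satellite, tRNA and remaining members held even numbers in 49.4, 51.4 and 52.0%. In 6 intervals of exactly 380 bp, on chromosomes 1, 2, 7 and 14, counts lay close together: 186 to 202 and 174 to 201 in the YAP1 vehicle libraries, and 146 to 191 and 130 to 148 in sorbitol. These 6 were picked out after their values were seen, by width and by a minimum count in both YAP1 vehicle libraries. The lower end of the vehicle ranges was thus bounded by that choice, and nothing is read from their closeness. The 6 include an intron of ZMYM4 (chr1:35280019-35280398) and of ACSL3 (chr2:222939940-222940319).

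**Figure D5:**
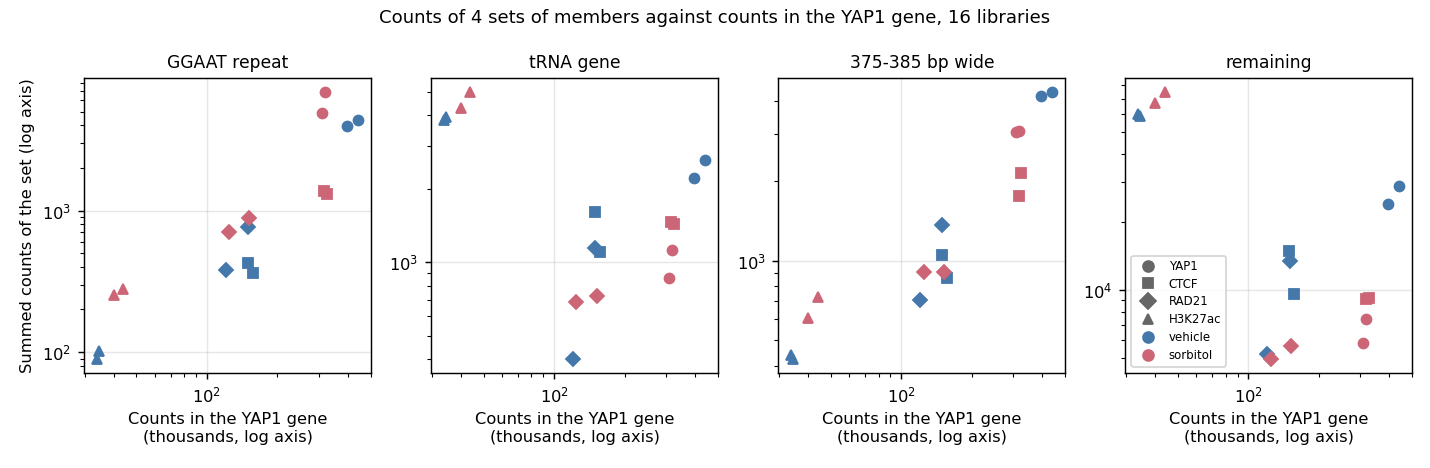
Summed counts of each sequence kind against counts in the YAP1 gene, with the 16 libraries as points on log axes. Expressed per 1000 counts in the YAP1 gene, the intervals of 375 to 385 bp stay between 5.44 and 16.6 over all targets. The remaining members range from 18.9 to 1770, or to 99.9 without the H3K27ac libraries.

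No member matched the spliced YAP1 transcript. A match to the mitochondrial genome of at least 100 bp and 80% identity was found in 5 members (0.861%, against 0.023% of the other distal intervals), for example over 367 bp at 85.8% identity at chr5:123761122-123761484. All 5 were among the remaining members. Per 1000 mitochondrial counts these 5 ranged 2.92-fold over the libraries, and per 1000 counts in the YAP1 gene 3.25-fold.

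Transfer RNA genes are short, transcribed by RNA polymerase III and grouped in clusters. The 42 members over them were mostly intergenic (35), and 39 were in the top 10% of distal intervals by H3K27ac in vehicle. Their median levels were 14.8 CPM of YAP1 in vehicle and 7.51 in sorbitol, 9.86 and 9.82 of RAD21, and 11.2 and 11.1 of H3K27ac. The YAP1 share of counts on chromosomes 1 to 22 and X was 0.134 ± 0.000707% in vehicle and 0.135 ± 0.00707% in sorbitol (SD, n = 2), a difference within the spread between libraries.

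RAD21 was the first target whose response the rule had not used. Of 581 members 370 had enough RAD21 counts for edgeR's quasi-likelihood test, and 211 did not. RAD21 was higher in sorbitol at 23 and lower at 2, beside 4.79% called of 17011 tested intervals (3.34% higher and 1.45% lower). The numbers moved with the scale: with total counts they were 8 and 11, beside 1.59% higher and 6.94% lower over all tested intervals, and with counts on chromosomes 1 to 22 and X they were 11 and 2, beside 1.99 and 1.9%. The median log2 difference over the tested members was 0.25, beside -0.01 over all tested intervals, and was -0.35 beside -0.60 with total counts. By kind, 7 of 22 tested satellite members were higher, 3 of 36 tRNA genes, 2 of 27 narrow intervals and 11 of 285 remaining members, and both lower sites were remaining members.

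The largest RAD21 rises outside the satellites stood at 2 sites on chromosomes 22 and 19. At chr22:49945124-49945715, 15053 bp from the start of PIM3, which encodes a serine/threonine kinase, RAD21 counts were 29 and 6 in vehicle and 60 and 79 in sorbitol, and rose by 3.09 ± 0.39 (SE) on the log2 scale (adjusted p = 0.00055). At chr19:4597845-4598534, 16069 bp from SEMA6B, a semaphorin gene, they were 34 and 9, then 73 and 79, and rose by 2.90 ± 0.34 (SE, adjusted p = 0.00033). Both sorbitol libraries lay above both vehicle libraries at each site, although the sorbitol libraries were the shallower on average. CTCF counts, in which the rule had a part, went from 17 and 10 to 69 and 28 beside PIM3 and from 61 and 32 to 73 and 76 beside SEMA6B. The third by size was a satellite at chr2:89836328-89836695, with 20 and 5 RAD21 counts in vehicle and 36 and 30 in sorbitol (log2 difference 2.47, adjusted p = 0.0082).

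Among tRNA genes, RAD21 rose at members over TRG-CCC5-1 (44 and 9 counts, then 76 and 56, log2 difference 2.42, adjusted p = 0.0021) and TRG-CCC1-1 (40 and 10, then 64 and 45, 2.21, adjusted p = 0.004), both glycine tRNA genes on chromosome 1. It also rose over TRC-GCA17-1, a cysteine tRNA gene on chromosome 7 (28 and 14, then 36 and 48, 2.01, adjusted p = 0.012). Glycine tRNA genes of this kind have near-identical copies, between which the counts may be divided. These 3 were named as the full count of tRNA genes past the test, after their values were seen.

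The 2 sites with lower RAD21 were also named after their values were seen. An intron of ART1 (chr11:3653825-3654742) had 58 and 14 counts in vehicle and 0 in both sorbitol libraries. Against a floor of 3 counts in each sorbitol library its level was at least 5.27-fold lower after TMM scaling and at least 8.13-fold lower with total counts. An intron of CMKLR2-AS (chr2:206229885-206230909) had 54 and 20 counts, then 2 and 4, a log2 difference of -2.53. Both sites reached the minimum of counts through the vehicle libraries alone, so their calls are given without support from the test.

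H3K27ac, the deepest target, was tested at 515 members. It was higher in sorbitol at 62 and lower at 130, beside 23.1% called of 56601 tested intervals (8.59% higher and 14.5% lower). With total counts as the scale the numbers were 95 and 98, beside 14.3 and 10.4%, and the median over tested members went from -0.12 to 0.03 while that of all tested intervals went from 0.02 to 0.17. Calls were more frequent at higher counts. Among the 398 members with a mean of at least 50 counts, 83 were higher and 105 lower. Of all 22246 intervals of that depth 22.2% were higher and 24.5% lower, near the members' shares. At the usual filter and scale, remaining members made up 58 of the higher and 120 of the lower sites, from 449 tested. Those with TEAD letters had 12 higher and 12 lower of 110 tested, and those without had 46 and 108 of 339. The 2 sets also differed in median H3K27ac in vehicle, 7.94 and 17.3 CPM, and in GC content, 50.3 and 58.4%. The difference in calls between them was not tested. Among tRNA genes 3 of 42 were higher and 10 lower. Of 22 narrow intervals 1 was higher, and neither of the 2 satellite members tested passed by edgeR (1 had an unadjusted p under 0.05).

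Among members above the median level of the tested intervals, the 3 largest rises in acetylation with libraries that did not overlap were at the LINC00632 intron given above, in MECOM and in ZNF608. The rule for naming sites left out 4 larger rises for their low level or overlapping libraries, up to 2.79 on the log2 scale. MECOM encodes a zinc finger factor of stem cells and kidney development. At its intronic member (chr3:169242242-169242892) H3K27ac counts were 83 and 79 in vehicle and 326 and 292 in sorbitol, and rose by 1.44 ± 0.15 (SE) on the log2 scale (adjusted p = 2.1e-09). YAP1 counts at that site were 58 and 48, then 9 and 6, and RAD21 counts 26 and 13, then 6 and 4. In an intron of ZNF608, another zinc finger gene (chr5:124661368-124661838), H3K27ac counts were 27 and 26, then 90 and 95 (log2 difference 1.32, adjusted p = 0.00034), with YAP1 at 41 and 53, then 7 and 6. At both sites H3K27ac was higher in both sorbitol libraries. The YAP1 counts were lower there, in part because the YAP1 sorbitol libraries were shallower. After TMM scaling the YAP1 log2 differences were -0.85 ± 0.46 at MECOM and -0.89 ± 0.51 at ZNF608 (SE). They involve the vehicle libraries that chose the members, and an opposed response of the 2 targets was not tested.

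The largest fall, by 2.22 on the log2 scale, was at the low-count interval chrX:1887415-1888488 described below. Among sites above the median level of the tested intervals, the 3 largest falls were beside CCNE1 and ACTG1 and on chromosome 1. CCNE1 encodes cyclin E1, which drives entry into DNA synthesis. At chr19:29806179-29806592, 5399 bp from its start, H3K27ac counts were 45 and 53 in vehicle and 25 and 11 in sorbitol, and fell by 1.94 on the log2 scale (adjusted p = 7.3e-05). ACTG1 encodes cytoplasmic gamma actin, and at chr17:81487550-81488278, 23872 bp away, counts were 275 and 226, then 91 and 93, a fall of 1.93 (adjusted p = 4e-12). At chr1:161456694-161456898 they were 76 and 75, then 29 and 31 (log2 difference -1.81, adjusted p = 2.7e-06). The groups did not overlap at any of the 3.

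In sorbitol, YAP1 could be set against CTCF in libraries that the rule had not used. YAP1 was above CTCF at 172 of 404 tested members and below it at 3, beside 36.8% called of 23019 tested intervals (11.6% above and 25.2% below), with a median of 1.02 beside -0.12. With total counts the numbers were 84 and 42, beside 1.42 and 48.5%. Satellite members gave 47 of 48, narrow intervals 31 of 32, tRNA genes 18 of 42, and remaining members 76 above and 3 below of 282. Remaining members with TEAD letters gave 22 of 42 and those without 54 above and 3 below of 240. The difference between those with and without TEAD letters was not tested. A site could enter this test through 1 target alone: 18 members did so through YAP1, all called above, and 30 through CTCF, none called. Of the 236 members with enough counts in all 4 libraries, YAP1 was above CTCF at 120 and below it at 3, beside 24.7 and 9.89% of the 8348 intervals of that kind.

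The largest excess over CTCF was at a satellite on chromosome 10 (chr10:41873692-41873960), with 89 and 58 YAP1 counts and 5 and 7 CTCF counts in sorbitol, a log2 difference of 4.94. The LINC00632 member of 12 TEAD matches at chrX:140724859-140725193, with 48 and 25 against 2 and 5, and a satellite on chromosome 4 (chr4:49657406-49657799), with 107 and 101 against 10 and 13, came next. The first and second of these sites reached the minimum through the YAP1 libraries alone and are given without a test. An intergenic interval on X (chrX:1887415-1888488), 251017 bp from the nearest protein-coding start, that of ASMT, was the highest of the remaining members against RAD21. It held 41 and 52 YAP1 counts and 5 and 0 RAD21 counts in sorbitol, a log2 difference of 4.07. It too reached the minimum through the YAP1 libraries alone. At that interval H3K27ac went from 16 and 37 to 14 and 2 and fell by 2.22 on the log2 scale (adjusted p = 0.0028).

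CTCF exceeded YAP1 most beside EPS8L2, which encodes a regulator of actin at cell edges. At chr11:734736-736473 the sorbitol libraries held 341 and 395 CTCF counts and 12 and 14 YAP1 counts, a log2 difference of -3.43 ± 0.29 (SE, adjusted p = 5.6e-07). CTCF counts in vehicle had been 31 and 24, which is how the interval came under the CTCF condition. The windows of this site and of the PIM3 site are shown together because each is built from copies of a longer unit in tandem, which a reader can see in the letters. Neither holds a TEAD or AP-1 match, and none of their letters are in capitals.
PIM3 side (chr22:49945270-49945569): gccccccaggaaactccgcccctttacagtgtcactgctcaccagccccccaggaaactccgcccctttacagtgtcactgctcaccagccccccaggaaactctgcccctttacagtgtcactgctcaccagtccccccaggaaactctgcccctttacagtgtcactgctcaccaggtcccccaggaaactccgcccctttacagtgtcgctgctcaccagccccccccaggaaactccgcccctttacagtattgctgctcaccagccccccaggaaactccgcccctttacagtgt
EPS8L2 side (chr11:735455-735754): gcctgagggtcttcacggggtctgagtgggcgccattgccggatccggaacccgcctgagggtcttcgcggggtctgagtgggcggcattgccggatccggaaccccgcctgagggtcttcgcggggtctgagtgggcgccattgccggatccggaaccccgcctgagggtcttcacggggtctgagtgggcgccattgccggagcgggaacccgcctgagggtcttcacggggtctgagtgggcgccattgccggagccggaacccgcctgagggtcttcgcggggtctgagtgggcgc

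The other two sites with CTCF above YAP1 were beside HGH1 on chromosome 8, with 159 and 178 CTCF counts and 24 and 18 YAP1 counts (log2 difference -1.62, adjusted p = 0.0003), and in an intron on chromosome 5 (-1.21, adjusted p = 0.013). The latter did not pass by DESeq2 or without the first CTCF library.

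Against RAD21 in sorbitol, YAP1 was higher at 81 of 361 tested members and lower at 4, beside 3.38% called of 13240 tested intervals (2.13% higher and 1.25% lower). Of the 81, 47 were satellite members (of 48 tested) and 22 narrow intervals (of 32). Remaining members gave 12 higher and 4 lower of 241, and their median, -0.11, was near that of all tested intervals, 0.01. No tRNA gene of 40 passed by edgeR, with 2 at an unadjusted p under 0.05. With total counts the numbers were 63 and 31, beside 1.46 and 10.9%. Of the 361, 15 entered through the YAP1 libraries alone, 10 of them called higher, and 56 through the RAD21 libraries alone, none called. Of the 161 members with enough counts in all 4 libraries, 57 were higher and 4 lower, beside 3.54 and 1.1% of the 5568 intervals of that kind. The 2 largest differences were at satellites: chr20:31241521-31241989, with 79 and 33 YAP1 counts against 2 and 2 RAD21 counts (log2 difference 4.53), and chr10:41903350-41903554, with 82 and 67 against 0 and 6 (4.44). Both reached the minimum through the YAP1 libraries alone and are given without a test.

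The 4 sites where RAD21 exceeded YAP1 were the PIM3 side (log2 difference -1.94, adjusted p = 0.0073), an intron of PIAS4 (-1.81, adjusted p = 0.0025), the SEMA6B side (-1.77, adjusted p = 0.0066) and, outside the naming rule, an intron of GALNT9 (-1.42, adjusted p = 0.031). PIAS4 encodes a SUMO ligase, and its member (chr19:4035642-4036769) held 170 and 76 RAD21 counts in vehicle and 168 and 190 in sorbitol, 69.0 ± 7.14 and 137 ± 26.3 CPM (SD, n = 2), a rise of 1.56 (adjusted p = 0.0062). H3K27ac rose there as well, from 81 and 64 to 189 and 196 counts (log2 difference 0.92, adjusted p = 0.00019). In the RAD21 libraries these 3 of the 4 sites, PIM3, SEMA6B and PIAS4, were thus higher in sorbitol.

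The RAD21 and H3K27ac responses were also set against each other. Of 573 tested members the RAD21 difference was above that of H3K27ac at 31 and below it at 24, beside 7.6% called of 56925 tested intervals (4.15% above and 3.45% below). The members' count is near that background.

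The members together held 2.06 ± 0.0176% of YAP1 counts on chromosomes 1 to 22 and X in vehicle and 2.26 ± 0.0611% in sorbitol (SD, n = 2 here and below). For CTCF the shares were 0.489 ± 0.0112 and 0.898 ± 0.00185%. For RAD21 they were 1.17 ± 0.0909 and 1.36 ± 0.0433%, and for H3K27ac 1.00 ± 0.0112 and 0.945 ± 0.00455%. As a share of counts over all intervals, RAD21 instead stood at 0.724 and 0.563% in vehicle and 0.575 and 0.591% in sorbitol, which overlapped. Among remaining members alone the RAD21 share of chromosomes 1 to 22 and X was 0.929 ± 0.0933 and 0.934 ± 0.0198%. As shares of chromosomes 1 to 22 and X, the RAD21 and H3K27ac groups of all members did not overlap (exact two-sided permutation p = 0.333 for each), and 0.333 is the smallest p that 2 against 2 libraries allow.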

How the data were processed

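The deposited files hold raw counts, whole numbers of reads in shared peak intervals for each library, as the authors made them and with no normalization by the authors. Per the submitters' processing notes, BWA 0.7.17, MACS2 2.2.6, bedtools 2.31.1, Trim Galore, SAMtools, Picard and FastQC were used with hg38. Their roles, and how reads with several matches or PCR copies were treated, are not given in the sources used here. All 74404 intervals fell within hg38 sequences.

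Groups came from the labels, 2 libraries each. Counts were fitted over the whole table with edgeR 4.0.16 in R 4.3.3 (robust quasi-likelihood test, TMM, filterByExpr with a minimum of 10) and p-values were Benjamini-Hochberg adjusted over all tested intervals, with 0.05 as the threshold. The fits were tested on simulated data. The annotation was GENCODE 44, tRNA genes came from RefSeq, sequences from hg38 (pysam 0.24.0), and BLAST 2.17.0 was run against the mitochondrial genome and the spliced YAP1 transcript. The labels do not say that replicates were separate cultures, so p-values measure the spread between libraries, which may be technical. Floors and counts cover counting error only. Replicate pairs differed beyond sampling noise. The members and lists were chosen with earlier results of these data known. Sites were named by rule: the 10 highest by YAP1 in vehicle, the 5 highest by YAP1 in sorbitol, the 3 largest rises and falls per tested comparison among sites above the median level of tested intervals with non-overlapping libraries, and members within 100 kb of a listed gene. Alternatives changed the scaling, the tool (DESeq2 1.42.0, with a local dispersion trend for H3K27ac, where the parametric trend did not converge in every run), the count filter, a GC correction, the replicate block, the member rule and the libraries included. One site is described without its gene.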

Additional observations from a re-analysis of the deposited data

Results flagged for a closer look

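The RAD21 and H3K27ac responses to sorbitol differed at some members, by a test of the difference itself (edgeR, target by treatment interaction). At 31 of 573 tested members the RAD21 log2 difference was above that of H3K27ac, and at 24 it was below, beside 4.15% above and 3.45% below of 56925 tested intervals. These shares are near the background of all intervals. By kind, 7 of 42 tRNA genes were above and none below, remaining members gave 24 in each direction of 450 tested, and none of 47 satellite or 34 narrow intervals passed (1 and 5 had an unadjusted p under 0.05). Of the satellite members, 2 had enough H3K27ac counts and 22 enough RAD21 counts for the tests of those targets alone. With so few counts the test could hardly call a satellite member, and nothing is read from the absence of calls there. The PIM3 site (difference 3.11, adjusted p = 1.3e-09) and the ACTG1 site (2.71, adjusted p = 1.9e-07) were above, the first with RAD21 higher in sorbitol and the second with H3K27ac lower. The MECOM intron was below (-2.50, adjusted p = 0.0015). With total counts as the scale, 11 were above and 74 below, beside 1.61% above and 11.1% below of all tested intervals.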

How the results depend on the processing

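Numbers of members called moved with scaling, depth and the library left out. RAD21 was higher at 23 and lower at 2, at 15 and 0 by DESeq2, 8 and 11 with total counts, 11 and 2 with counts on chromosomes 1 to 22 and X, 5 and 1 at a mean of 50 counts or more, 50 and 1 after GC correction and 49 and 1 with GC correction and the block. Lower calls were 7 with the CTCF rank over all intervals and 1 with ranking by CPM per kb. Leaving out 1 library gave 22 to 37 higher and 1 to 7 lower, with 37 and 7 without the first sorbitol library and 35 and 5 without the second; 1 was lower without either vehicle library. H3K27ac gave 62 higher, 25 by DESeq2, 95 with total counts and 35 to 44 when 1 library was left out (39 without the first vehicle library, 35 without the second sorbitol library). Its 130 lower calls ranged from 93 to 178. At a mean of 50 counts or more it gave 83 higher and 105 lower of 398 members, beside 22.2 and 24.5% of all tested intervals. YAP1 above CTCF gave 172, 111 by DESeq2, 84 with total counts, 66 at a mean of 50 or more and 76 among remaining members alone. The 3 below became 42 with total counts, 5 with chromosomes 1 to 22 and X, 10 without a filter, 11 with GC correction, 7 with GC correction and the block, 5 with the CTCF rank over all intervals, and 2 to 8 when 1 library was left out (8 without the first YAP1 library). YAP1 above RAD21 gave 81, 48 at a mean of 50 or more and 12 among remaining members alone. The 4 below became 31 with total counts, 7 with GC correction, 8 with GC correction and the block, 7 with the CTCF rank over all intervals, and 4 to 6 when 1 library was left out (6 without the second library of either target). RAD21 higher among remaining members alone was 11. The interaction gave 31 above and 24 below, 11 and 74 with total counts, 24 and 39 with chromosomes 1 to 22 and X, 59 above with the CTCF rank over all intervals and 14 below with GC correction and the block. Leaving out 1 library gave 18 to 35 above and 11 to 24 below, the lowest without the first H3K27ac sorbitol library (18 and 12) and the first RAD21 vehicle library (11 below), with 20 above without the second H3K27ac vehicle library and 14 below without the second H3K27ac sorbitol library. The RAD21 share rose by 0.185 percentage points but was -0.0606 as a share of all intervals. It was 0.00529 among remaining members alone. Alternatives among remaining members were chosen after seeing the data. The cause of these changes was not tested.

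Of the 262 values of single sites under alternatives, 258 kept direction and call. The 4 that lost the call were 2 at the chromosome 5 intron and, by DESeq2, the YAP1 excess over RAD21 at chrX:1887415-1888488 and chr10:41903350-41903554.

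Replicate numbers did not pair the libraries: the correlations of deviations of same-numbered libraries were -0.005 for RAD21 and H3K27ac, -0.009 for YAP1 and CTCF and 0.0003 for YAP1 and RAD21. With the replicate block RAD21 gave 19 higher and 1 lower, H3K27ac 66 and 130, YAP1 against CTCF 144 and 3, YAP1 against RAD21 81 and 4, and the interaction 29 and 20.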
